A study of Mus musculus with 12 samples.

Results

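The 6 genes Socs1, Socs3, Spry2, Rgs16, Gem and Gadd45b, which encode feedback inhibitors and stress brakes of signalling, were followed in gene-edited mouse mast cells before and after activation. They are 6 of the 734 endogenous probes of the NanoString nCounter Myeloid Innate Immunity Panel, and were chosen by role, with the responses of some of them to stimulation and to loss of Mettl3 already known in these libraries. With IgE and antigen, 3 members passed upward in control cells and 4 in Mettl3-edited cells (adjusted p under 0.05, edgeR's quasi-likelihood test without pairing). Of the 545 tested genes, 12.1% and 22% did so. Gem, called in Mettl3-edited cells only, was higher in 3 of 3 replicates of the control cells as well. Spry2 rose by 4.33-fold and 4.54-fold in the 2 genotypes, Socs1 was lower after stimulation in both, and Gem was the member that differed most between the genotypes after stimulation. The values in these contrasts are a description, because the contrasts were in view when the genes were picked.

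The cells were bone marrow-derived mast cells (BMMCs), a primary culture grown from whole bone marrow of C57BL/6 mice aged 6 to 8 weeks in IL-3 for at least 4 weeks. All were edited with Cas9 ribonucleoproteins and a repair template that places the fluorescent reporter ZsGreen with a stop at the cut site, either in Kit (c-Kit KO, the edited control) or in Mettl3 (Mettl3 KO), and all were sorted for ZsGreen, so that the controls carry an edit and a reporter too. Cells of each genotype were kept unstimulated (US), or received IgE with its antigen for 4 h (IgE), at 1 µg/ml of antibody against DNP and 0.2 µg/ml of HSA-DNP. This gave 4 groups (Kit US, Kit IgE, Mettl3 US and Mettl3 IgE) of 3 replicates each, and 12 libraries of raw probe counts in all. The comparison of Mettl3 KO with c-Kit KO asks how the m6A methyltransferase bears on the transcripts, and that of IgE with US gives the response to activation. Each library is of a sorted population, not of a clone, and no unedited cells are among the groups. Since the controls were edited in Kit, which encodes a growth factor receptor of mast cells, the genotype comparison sets an edit of Mettl3 against an edit of Kit. No SCF, the ligand of c-Kit, was added to these cultures.

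Activated cells switch on genes whose products damp the pathways that induced them, which limits the length and strength of a response. SOCS proteins bind cytokine receptors and JAK kinases and block STAT signalling, Sprouty proteins restrain the Ras-ERK cascade, RGS proteins speed the hydrolysis of GTP by G protein alpha subunits, and GADD45 proteins bind kinases of the JNK and p38 stress pathways. In mast cells the crosslinking of IgE on the high-affinity receptor FcεRI starts calcium, ERK, JNK and NF-kB signalling. Mettl3 is the catalytic subunit of the complex that writes N6-methyladenosine (m6A) on mRNA, a mark often followed by faster decay. SOCS family transcripts are among the m6A-marked mRNAs described in T cells. The study reports Socs1 and Socs3 as methylated in mast cells too, with no significant effect of Mettl3 deletion in RNA-seq of unstimulated cells.

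Socs1 lies on chr16:10783808-10785536 (minus strand), Socs3 on chr11:117966079-117970336 (minus), Spry2 on chr14:105891947-105896819 (minus), Rgs16 on chr1:153740353-153745468 (plus), Gem on chr4:11704447-11714993 and Gadd45b on chr10:80930091-80932204 (plus), all as RefSeq gives them on GRCm38.p6. Each gene was read by 1 probe, which starts at base 1020 of the Socs1 transcript, 585 of Socs3, 1076 of Spry2, 1280 of Rgs16, 1395 of Gem and 415 of Gadd45b. Probes differ in efficiency and target, so that levels were compared within a gene only.

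For Gem no promoter was printed, and 5 of the 6 genes had a promoter sequence in the RefSeq table (250 bases before to 50 bases after the start, GRCm38.p6), shown here because Spry2, Rgs16 and Gadd45b moved together across the libraries whereas Socs1 moved the other way and Socs3 hardly at all. Capitals mark matches to 6 motifs searched on both strands: GGAAA, the core of NFAT sites (held by 61.5% of 32544 promoters of the same length), TGANTCA for AP-1 (7.79%), TGACG for the cAMP response element core (20.9%), TTCNNNGAA for STAT (8.33%), the NF-kB motif (1.61%) and TATAAA (13.6%). No 2 matches overlapped in these windows.
Spry2, chr14:105896770-105897069, minus: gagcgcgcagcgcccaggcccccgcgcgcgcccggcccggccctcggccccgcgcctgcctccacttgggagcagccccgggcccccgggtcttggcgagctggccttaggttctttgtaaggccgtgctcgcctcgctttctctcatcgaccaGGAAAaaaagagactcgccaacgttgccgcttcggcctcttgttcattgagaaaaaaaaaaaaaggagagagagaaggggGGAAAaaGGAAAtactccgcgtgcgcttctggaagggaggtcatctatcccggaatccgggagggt
Rgs16, chr1:153740103-153740402, plus: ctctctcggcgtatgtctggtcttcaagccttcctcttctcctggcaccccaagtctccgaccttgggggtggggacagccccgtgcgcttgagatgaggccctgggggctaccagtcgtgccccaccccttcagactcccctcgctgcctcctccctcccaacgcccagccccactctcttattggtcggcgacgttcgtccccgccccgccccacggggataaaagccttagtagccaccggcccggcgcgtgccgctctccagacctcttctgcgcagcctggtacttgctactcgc
Gadd45b, chr10:80929841-80930140, plus: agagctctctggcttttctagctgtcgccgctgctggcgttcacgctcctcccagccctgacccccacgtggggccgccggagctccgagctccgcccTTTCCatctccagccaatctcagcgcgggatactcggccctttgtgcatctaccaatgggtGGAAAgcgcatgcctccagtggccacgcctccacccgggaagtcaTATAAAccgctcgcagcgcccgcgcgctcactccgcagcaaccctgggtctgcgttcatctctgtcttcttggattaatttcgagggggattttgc
Socs1, chr16:10785487-10785786, minus: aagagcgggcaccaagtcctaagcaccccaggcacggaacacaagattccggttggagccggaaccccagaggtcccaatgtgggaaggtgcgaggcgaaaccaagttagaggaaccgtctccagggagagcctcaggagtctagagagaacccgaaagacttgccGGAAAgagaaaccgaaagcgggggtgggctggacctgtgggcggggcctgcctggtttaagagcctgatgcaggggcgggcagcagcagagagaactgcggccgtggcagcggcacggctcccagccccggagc
Socs3, chr11:117969317-117969616, minus: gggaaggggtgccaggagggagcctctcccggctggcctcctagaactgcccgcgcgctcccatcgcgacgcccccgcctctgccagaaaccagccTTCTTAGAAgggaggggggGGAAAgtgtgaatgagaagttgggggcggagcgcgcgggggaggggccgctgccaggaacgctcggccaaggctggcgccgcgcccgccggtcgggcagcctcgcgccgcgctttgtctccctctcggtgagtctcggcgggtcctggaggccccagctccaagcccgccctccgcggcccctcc
Each sequence is written along the strand of its gene. Spry2 held 3 GGAAA matches, Gadd45b 2 GGAAA matches (of which TTTCC is read on the opposite strand) and TATAAA, Socs1 and Socs3 1 GGAAA match each, and Socs3 the STAT motif as well. The Rgs16 window held none of the 6 motifs, and no window held the AP-1, cAMP response element or NF-kB motif. GGAAA is present in most promoters, and the Socs3 window lies inside the annotated span of the gene, so these matches are a description of letters only. The 3 genes that moved together thus shared no motif of the 6.

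Total endogenous counts were between 504238 and 737910 per library. Replicates of a group always differed by more than counting noise, the smallest chi-square per degree of freedom being 23.8, and no library repeated another. Counts were divided by a factor from the 20 housekeeping probes of each library (0.715 to 1.36), and a value was called above background where the raw count exceeded the mean plus 2 SD of that library's 8 negative controls (13.1 to 39.2 counts). Of 10 mast cell markers 10 were above that limit in all 12 libraries, whereas 7 of 7 neutrophil, 8 of 11 macrophage and monocyte, 4 of 5 eosinophil and 3 of 6 lymphocyte markers were above it in no library. The summed level of the mast cell markers was 352505 to 457792 normalized counts in Kit US and lower, 183085 to 303411, in Kit IgE. It was 364583 to 501537 in Mettl3 US and 164027 to 256390 in Mettl3 IgE. This sum is weighted toward the brightest probes and does not follow each marker, with raw counts of up to 264771 for Cpa3 and 452 for Gata1. The part of this fall in the results below was not tested. The panel has no Mettl3 probe, and its Kit probe starts at base 4275 of the transcript, outside the edited exon though downstream of the inserted polyadenylation and stop signals. Its normalized counts were 1856 to 2856 in Kit US and 2456 to 4057 in Mettl3 US, and 738 to 1613 in Kit IgE and 1550 to 1845 in Mettl3 IgE, so that the genotypes overlapped in both states and these counts do not settle either edit.

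Of the 72 values of the 6 genes, 58 exceeded the background limit. Each of the 14 values at or under it belonged to Rgs16, Gem or Socs3. Rgs16 and Gem were at background in all 6 unstimulated libraries, where Rgs16 had raw counts of 6 to 20 and Gem of 9 to 21 against negative control means of 7.13 to 18.9. Gem was above the limit in 2 of 3 Kit IgE libraries and Socs3 in 2 of 3, and every Mettl3 IgE value of all 6 genes was above it. Socs3 stayed close to background throughout, at 1.43 to 4.63 times the negative control mean. Spry2 and Gadd45b were low but above the limit at rest, at 1.91 to 5.75 times the mean of the negative controls, and Socs1, with 16.6 to 130.0 times that mean, was the only member far above it in every library.

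**Figure D1:**
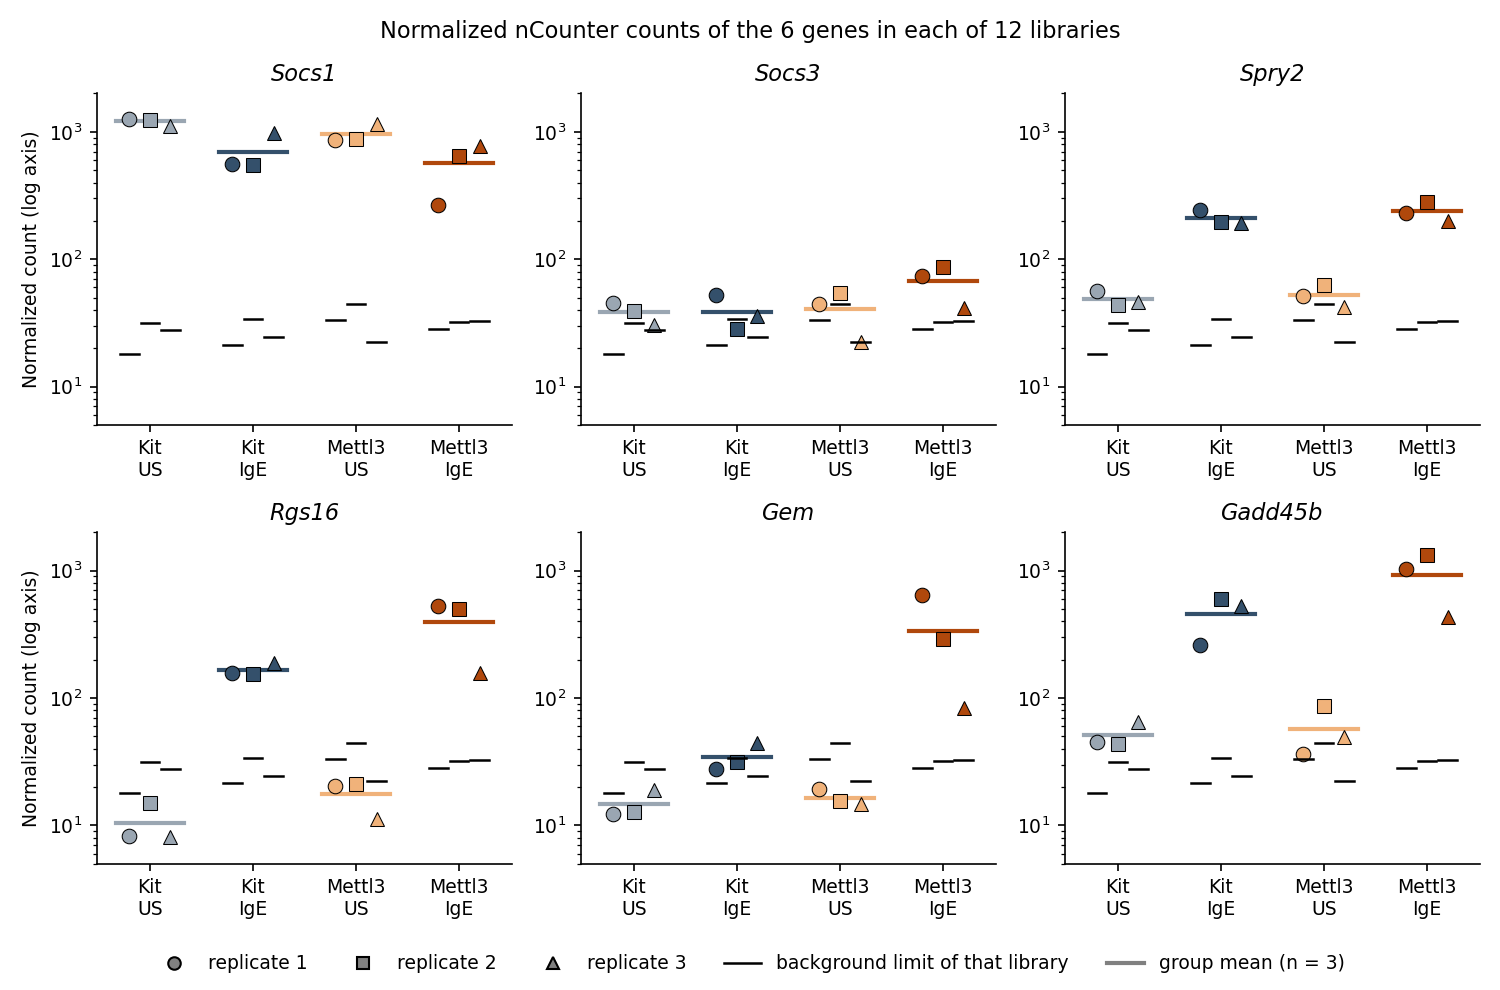
Housekeeping-normalized counts (log axis) of the 6 genes in 12 libraries, by group (Kit or Mettl3 edited, US or IgE), with a symbol for each replicate, a coloured line at the group mean (n = 3) and a black tick at each library's background limit. Unstimulated Rgs16 and Gem lie under the ticks in 6 of 6 libraries, Spry2 separates by stimulation alone, and the Mettl3 IgE values of Gem spread from 83.6 to 642.3.

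Socs1, which binds JAK kinases and so shuts off signalling by cytokine receptors, was lower after stimulation in both genotypes. Its normalized counts were 1268, 1239 and 1111 in Kit US, 562, 547 and 984 in Kit IgE, 856, 884 and 1157 in Mettl3 US, and 265, 650 and 781 in Mettl3 IgE (replicates 1, 2 and 3). Stimulated and unstimulated libraries did not overlap in either genotype, and the fall was smallest in replicate 3 of Kit and largest in replicate 1 of Mettl3. The log2 fold change of IgE against US was -0.79 ± 0.37 (SE) in Kit and -0.77 ± 0.37 in Mettl3, neither past the threshold, which was an adjusted p under 0.05 by edgeR's quasi-likelihood test over 545 tested genes. Ordered by mean, Kit US (1206 ± 83.9, SD, n = 3) was followed by Mettl3 US (966 ± 166), Kit IgE (697 ± 248) and Mettl3 IgE (565 ± 268), and each neighbour in this order overlapped the next.

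Socs3, which acts on receptors of the gp130 family, changed little. Its normalized counts were 45.2, 39.0 and 30.5 in Kit US, 51.9, 28.2 and 35.9 in Kit IgE, 44.6, 54.6 and 22.6 in Mettl3 US, and 73.9, 87.4 and 41.4 in Mettl3 IgE. The groups overlapped in all 4 comparisons, and the 2 highest values were replicates 1 and 2 of Mettl3 IgE. The log2 fold change with stimulation was 0.02 ± 0.40 in Kit and 0.74 ± 0.39 in Mettl3, where 3 of 3 replicates were higher (by 0.71, 0.67 and 0.85 in log2 normalized count + 1). Stimulated Mettl3 was also above stimulated Kit in 3 of 3 replicates, by 0.50, 1.60 and 0.20. With mean levels of 38.2 ± 7.4 (Kit US), 38.7 ± 12.1 (Kit IgE), 40.6 ± 16.4 (Mettl3 US) and 67.5 ± 23.6 (Mettl3 IgE), no neighbours in the order differed beyond their spread.

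Spry2, an inhibitor of the Ras-ERK pathway that is itself induced by ERK, had the steadiest response. It was measured at 56.2, 43.6 and 45.8 normalized counts in Kit US and 243, 195 and 193 in Kit IgE, then at 51.7, 62.9 and 42.5 in Mettl3 US and 232, 283 and 199 in Mettl3 IgE. Each stimulated library was above each unstimulated one, and the genotypes overlapped in both states. The log2 fold change of IgE against US was 2.12 ± 0.26 in Kit (4.33-fold) and 2.18 ± 0.26 in Mettl3 (4.54-fold). Within replicates the log2 difference in normalized count + 1 ranged from 2.06 to 2.13 in Kit and from 2.14 to 2.20 in Mettl3, the smallest spreads among the 6 genes in either genotype (SD 0.039 and 0.031, n = 3).

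Rgs16, which speeds the shut-off of G proteins downstream of chemokine and other receptors, went from background to a clear signal. Unstimulated values were 8.22, 14.9 and 8.07 normalized counts in Kit and 20.3, 21.0 and 11.3 in Mettl3, and stimulated ones 158, 155 and 188 in Kit and 527, 503 and 156 in Mettl3. Stimulated and unstimulated libraries lay far apart in both genotypes, and 2 of the 3 Mettl3 IgE libraries were above all of Kit IgE while replicate 3 lay within the Kit IgE range. Its log2 response was 3.99 ± 0.50 in Kit and 4.50 ± 0.50 in Mettl3, against an unstimulated level that was not above background. Set against the mean background limit of the unstimulated libraries instead, the stimulated means of 167 ± 17.9 (Kit) and 395 ± 208 (Mettl3) were 6.5 and 11.9 times that limit.

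Gem, a small GTPase of the RGK family that inhibits voltage-gated calcium channels, was the member with the largest difference between genotypes. Unstimulated values were 12.3, 12.6 and 18.8 normalized counts in Kit and 19.3, 15.4 and 14.8 in Mettl3, with 27.6, 31.3 and 44.0 in Kit IgE and 642.3, 289 and 83.6 in Mettl3 IgE. Both genotypes had their stimulated libraries above the unstimulated ones, and each Mettl3 IgE library was above all 3 Kit IgE libraries, from which replicate 3 was the least far. The log2 fold change with stimulation was 1.22 ± 0.60 in Kit, not past the threshold, and 4.35 ± 0.63 in Mettl3, with 3.48 in Mettl3 when replicate 1 of Mettl3 IgE was left out. In Kit the rise was alike in all 3 replicates (1.10, 1.24 and 1.18 in log2 normalized count + 1) and passed the threshold in 3 of 22 alternatives, namely background subtraction, the 2 Kit groups fitted alone and the fit without replicate 3 of Mettl3 IgE, while the call in Mettl3 was lost in 1, the unmoderated linear model, so that Gem stands near the line in Kit. The mean of Mettl3 IgE (338 ± 283) was 10.2 times the mean background limit of Mettl3 US, and that of Kit IgE (34.3 ± 8.6) was 1.33 times that of Kit US.

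Gadd45b, a stress-induced protein that binds kinases upstream of JNK and p38 and is a target of NF-kB, was induced in both genotypes. It had 45.2, 43.6 and 64.6 normalized counts in Kit US and 263, 594 and 523 in Kit IgE, and 36.5, 86.7 and 49.5 in Mettl3 US and 1025, 1336 and 430 in Mettl3 IgE. The stimulated libraries were above the unstimulated ones throughout, while in stimulated cells replicate 3 of Mettl3 fell among the Kit values. Stimulation changed it by a log2 fold change of 3.16 ± 0.49 in Kit (8.95-fold) and 4.02 ± 0.51 in Mettl3 (16.2-fold).

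With IgE and antigen, 3 of the 6 genes passed the threshold upward in Kit (Spry2, Rgs16 and Gadd45b) and none downward, where 12.1% of the 545 tested genes passed upward and 6.79% downward. In Mettl3 the 4 genes Spry2, Rgs16, Gem and Gadd45b passed upward and none downward, against 22% and 10.6% of all tested genes. Stimulated libraries lay wholly above unstimulated ones for 4 members in each genotype (18.3% of tested genes in Kit, 26.2% in Mettl3), and wholly below for 1, Socs1 (15.4% and 17.6%). These shares describe the genes and support nothing about them, since some were picked for these responses. The median log2 fold change of the 6 genes was 1.67 in Kit and 3.10 in Mettl3, beside -0.05 and 0.02 over all tested genes. Scaled by TMM in place of the housekeeping probes, the all-gene median in Mettl3 moved by -0.16 and the calls there went from 120 higher and 58 lower to 107 and 87, with the same number of the 6 genes called. Because these are bulk RNA samples, fewer responding cells and less RNA per cell cannot be told apart.

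**Figure D2:**
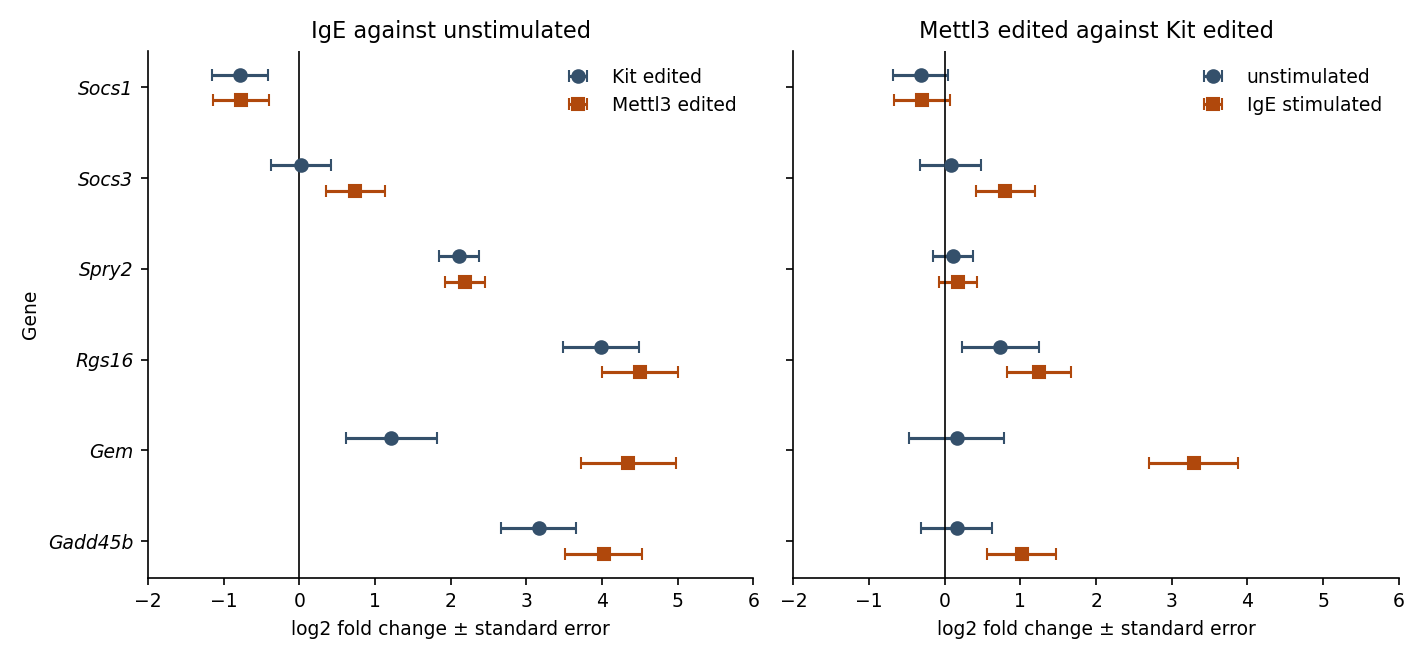
Log2 fold changes ± standard error from edgeR (x axis) of the 6 genes (y axis), for IgE against US in each genotype (left) and Mettl3 against Kit in each state (right). Spry2 has 2.12 and 2.18 in the left panel. In the right panel Gem in stimulated cells (3.29) stands apart from the 5 other genes. The unstimulated value of Gem (0.16) compares counts at background.

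At rest, no difference between Mettl3 KO and c-Kit KO cells in the 6 genes was larger than the spread of the replicates by the test. No member was picked for a difference at rest, although results of this contrast were known too, and its test is given on that footing. By edgeR, 0 of 545 genes passed in either direction (0%), with 7 at an unadjusted p under 0.05 and 0 by DESeq2 and by limma. The log2 fold change of Mettl3 over Kit was -0.32 ± 0.37 for Socs1, 0.08 ± 0.40 for Socs3, 0.11 ± 0.26 for Spry2, 0.73 ± 0.51 for Rgs16, 0.16 ± 0.63 for Gem and 0.16 ± 0.47 for Gadd45b, all with an adjusted p of 0.997 in edgeR. The 2 genotypes overlapped for each of the 6 genes, while 2.75% of tested genes lay wholly higher and 2.02% wholly lower in Mettl3. Rgs16 was higher in Mettl3 in 3 of 3 replicates, but all 6 of its values were at background. So were all 6 values of Gem, whose log2 fold change became -0.38 with background subtracted. Socs1, which is well above background, had a lower value in Mettl3 in replicates 1 and 2 and a nearly equal one in replicate 3. For Socs3, Spry2 and Gadd45b the sign turned when replicate 2 of Mettl3 US was left out (-0.19, -0.040 and -0.25), so that no direction is given for them.

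In stimulated cells Gem was the only member called, out of 5 genes called higher (0.917% of 545) and 0 called lower (0%) in Mettl3. Its log2 fold change of Mettl3 over Kit was 3.29 ± 0.59, with 1.24 ± 0.42 for Rgs16, 1.01 ± 0.45 for Gadd45b, 0.80 ± 0.39 for Socs3, 0.18 ± 0.25 for Spry2 and -0.30 ± 0.37 for Socs1, beside a median of 0.20 over all tested genes that became 0.01 under TMM, where Spry2 turned to -0.03. The Mettl3 libraries lay wholly above the Kit ones for Gem alone among the members (14.3% of tested genes did so, and 1.65% lay wholly below). By replicate, the difference in log2 normalized count + 1 was 4.49, 3.17 and 0.91 for Gem, 1.73, 1.69 and -0.27 for Rgs16 and 1.96, 1.17 and -0.28 for Gadd45b. Thus replicates 1 and 2 carried the difference in all 3 genes, and of these 3 only Gem was higher in Mettl3 in replicate 3. Spry2, with differences of -0.07, 0.54 and 0.04, showed no such split.

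The call on Gem was lost when any of the 3 Kit US libraries, replicate 1 or 2 of Kit IgE, or replicate 1 or 2 of Mettl3 IgE was left out, and also when the 2 stimulated groups were fitted alone. Its log2 fold change was 2.43 without replicate 1 of Mettl3 IgE and stayed between 3.16 and 3.39 in the other 6 of these 7 fits. Without replicate 3 of Mettl3 IgE, Rgs16 passed as well, with 1.62.

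**Figure D3:**
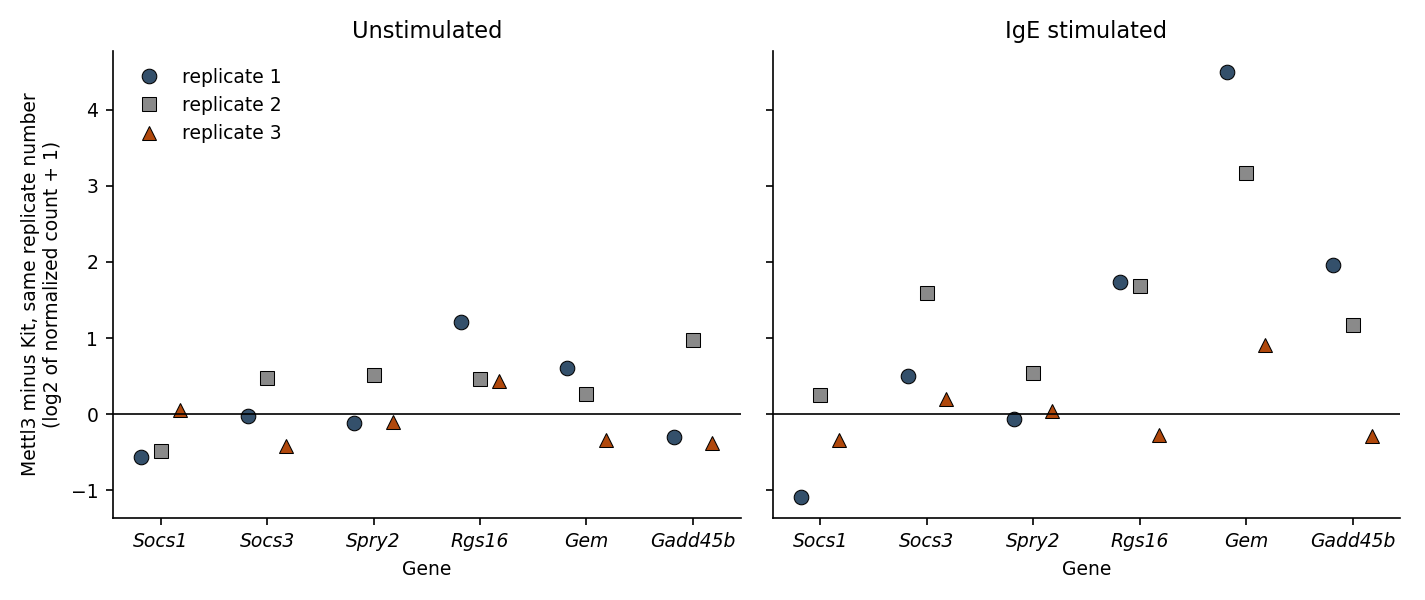
Difference between Mettl3 and Kit libraries of the same replicate number (y axis, log2 of normalized count + 1) for the 6 genes, unstimulated (left) and stimulated (right), with a symbol for each replicate. In the right panel replicates 1 and 2 of Rgs16, Gem and Gadd45b lie above 1 and replicate 3 lies at -0.27, 0.91 and -0.28.

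In stimulated cells the replicates of Gem and Rgs16 were spread more widely in Mettl3 than in Kit. The coefficient of variation of Gem was 83.5% in Mettl3 IgE and 25.1% in Kit IgE, and that of Rgs16 52.6% and 10.7%. It differed less for Gadd45b (49.5% and 37.9%), Socs1 (47.4% and 35.6%) and Spry2 (17.9% and 13.4%). In Mettl3 IgE, replicate 3 had the lowest level of 5 members and the highest level of Socs1, but not the smallest response of every gene, since its rise over replicate 3 of Mettl3 US was the smallest of the 3 replicates for Rgs16, Gem and Gadd45b and the largest for Socs3 and Spry2.

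The interaction term of the same model measured how far the stimulation response of a gene changed from c-Kit KO to Mettl3 KO cells. The estimate was 3.13 ± 0.85 for Gem, 0.86 ± 0.65 for Gadd45b, 0.72 ± 0.56 for Socs3, 0.51 ± 0.67 for Rgs16, 0.07 ± 0.36 for Spry2 and 0.02 ± 0.52 for Socs1 on the log2 scale, the last 2 turning sign under TMM (-0.09 and -0.21). No gene of 545 passed in either direction (0%) by edgeR, with 23 at an unadjusted p under 0.05, 2 by DESeq2 and 0 by limma. Gem was called in this contrast only when replicate 3 of Mettl3 IgE was left out (3.60). The contrast uses the same libraries as the others, and its values for the members are a description. Rgs16 and Gem were at background in all unstimulated libraries, so their interaction rests in part on a difference at background. Over the alternatives it ran from 0.16 to 1.37 for Rgs16 and from 2.27 to 4.48 for Gem.

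Across the 12 libraries Spry2, Rgs16 and Gadd45b followed each other closely, with Pearson correlations of 0.95 to 0.97 between their log2 values, which share the same groups and stimulation. Gem followed Rgs16 and Gadd45b less closely (0.86 and 0.85), and Socs1 ran against the other 5 (-0.54 to -0.80). Among all tested genes the 2 most like Spry2 were Egr2 (0.98), an early growth response factor induced by ERK, and Crabp2 (0.97). For Rgs16 they were the chemokine Ccl4 (0.98) and the scavenger receptor Olr1 (0.98), for Gem the stress-induced factor Atf3 (0.97) and the growth factor Hbegf (0.96), and for Gadd45b the Src family kinase Fyn (0.98) and the elongation factor Ell2 (0.97). Socs1 and Socs3 had looser partners, the integrin Itgb7 (0.83) and the adaptor Myd88 (0.81) for the one, and the small GTPase Rab20 (0.89) and the protease Adamts1 (0.89) for the other. Atf3 showed the same order of libraries as Gem in stimulated Mettl3 cells, at 1932, 466 and 70.4 normalized counts in replicates 1, 2 and 3, and 46.6, 64.6 and 57.9 in Kit IgE.

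Other brakes on the same pathways were taken from fixed lists, of which 60 of 71 genes were tested. With stimulation, 5 of these 60 passed higher and 5 lower in Kit (8.33% each, beside 12.1% and 6.79% of all tested genes), and 20 higher and 6 lower in Mettl3 (33.3% and 10%, beside 22% and 10.6%). With the replicate number as a block these counts were 12 and 9 in Kit and 23 and 8 in Mettl3, so that the numbers for Kit rest on whether the pairing is used. Between the genotypes none of the 60 passed by edgeR, at rest or stimulated, nor in the interaction, so a gene called in Mettl3 alone is not shown to respond differently there.

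Among direct brakes, the MAP kinase phosphatases Dusp1, Dusp2 and Dusp6, which inactivate ERK, JNK and p38, were all called higher in Mettl3 (3 of 3) and none in Kit (0 of 3), with median log2 fold changes of 2.50 and 0.82. Dusp2 (2.98 ± 0.52, edgeR adjusted p = 0.00118) was at background in all unstimulated libraries, and the calls on Dusp1 (2.50 ± 0.89, adjusted p = 0.0492) and Dusp6 (0.83 ± 0.28, adjusted p = 0.0389) held in 8 and 10 of 22 alternatives. Dusp6 had nearly the same value in Kit (0.82 ± 0.28, edgeR adjusted p = 0.0616). It passed in Kit in 6 of 22 alternatives, among them the block (adjusted p = 0.0386). Of the 3 brakes on NF-kB, Nfkbia (2.25 ± 0.53, adjusted p = 0.00725), the inhibitor that holds NF-kB in the cytoplasm, and Tnfaip3 (2.25 ± 0.56, adjusted p = 0.00983), which edits ubiquitin chains on its upstream factors, rose in Mettl3, and Nfkbie had 0.42. In Kit none of them passed, with a median of 0.87. Tnfaip3 had 1.34 in Kit and passed there in 3 of 22 alternatives, among them the block (edgeR adjusted p = 0.00738). Smad7, an inhibitor of TGF-beta receptors, rose in Mettl3 (1.43 ± 0.41, adjusted p = 0.0209), the only one of 3 TGF-beta brakes called in either genotype.

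The closest relative of the SOCS members on the panel, Socs2, had log2 fold changes of -0.33 in Kit and 0.00 in Mettl3 and was not called. Rgs1, a relative of Rgs16, had 1.53 ± 0.80 in Kit and 1.73 ± 0.81 in Mettl3 and was not called in the main test. With the block it passed in both genotypes (edgeR adjusted p = 0.0181 and 0.00946). Of 22 alternatives, 1 called Rgs1 in Kit and 3 in Mettl3. Gnai3, a G protein alpha subunit on which RGS proteins act, had 0.00 and 0.10. Of 5 genes of stress and growth arrest, the cell cycle inhibitor Cdkn1a rose in both (1.00 ± 0.27 in Kit, adjusted p = 0.027, and 1.70 ± 0.28 in Mettl3, adjusted p = 0.000796), and Atf3 passed in Mettl3 (5.89 ± 0.96, adjusted p = 0.000796). In Kit Atf3 had 2.44 ± 0.89 (edgeR adjusted p = 0.0803) and passed in 6 of 22 alternatives. Atf3 was at background in all unstimulated libraries, so both fold changes have a background level under them.

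Upstream of SOCS, 2 of 9 tested cytokine receptors fell and 1 rose in Kit, and 3 fell and 2 rose in Mettl3. Il4ra, the IL-4 receptor chain, fell in both (by 1.00 ± 0.25 and 1.36 ± 0.25 on the log2 scale, edgeR adjusted p = 0.0181 and 0.00178), as did Ifnar2 of the type I interferon receptor (-0.89 and -0.95), and Il21r rose in both (1.87 and 1.84) from a level at background. Il3ra, a chain of the receptor for the cytokine these cultures grow in, fell in Mettl3 (-0.97 ± 0.33, adjusted p = 0.0397). In the JAK-STAT list of 7 the transcription factor Stat4 fell in both (-1.36 ± 0.26 and -1.66 ± 0.26), and Stat5a rose in Mettl3 (1.18 ± 0.39), with list medians of -0.28 and -0.17. Of 6 STAT targets Pim2, a survival kinase, fell in both (-1.93 ± 0.27 and -1.42 ± 0.26, adjusted p = 0.000597 and 0.00171), and Id2 rose in Kit (1.35 ± 0.33, adjusted p = 0.0157) and, with the block only, in Mettl3 (adjusted p = 0.0284).

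Upstream of Spry2 and Gadd45b, 0 of 4 Ras-ERK genes passed in Kit and 1, the ERK kinase Map2k1 (0.92 ± 0.26, adjusted p = 0.0196), in Mettl3. Of 5 stress kinases, the p38-activating kinase Map2k3 (0.75 ± 0.21) passed upward in Mettl3. In Kit it had 0.59 ± 0.21 and passed in 5 of 22 alternatives, among them the block (edgeR adjusted p = 0.0451). The p38 isoform Mapk13 passed in Mettl3 too, but its probe was above background in 0 of 12 libraries and no value is given for it. Among 5 early genes that ERK induces, Egr2 rose in both genotypes (3.66 ± 0.51 and 4.10 ± 0.51, adjusted p = 0.000616 and 0.000251), and Egr3, Fosb and Fosl1 passed in Mettl3, with list medians of 2.39 in Kit and 3.08 in Mettl3. Egr3 passed in Kit as well with the block (adjusted p = 0.0138), and Fosl1 was at background in all unstimulated libraries. Egr2 was above background in 1 of the 6 unstimulated libraries, and the call on Fosb held in 9 of 22 alternatives. Among 7 other small GTPases and their regulators, Rhoc rose in both (1.60 ± 0.38 and 1.59 ± 0.36) from a level at background, Rgl1 fell in Kit (-1.44 ± 0.45), and in Mettl3 Arf6 rose (1.08 ± 0.26) and Rab3d fell (-1.58 ± 0.38). With the block, Arf6 and Rab3d passed in Kit too, in the same directions (adjusted p = 0.0226 and 0.0211).

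**Figure D4:**
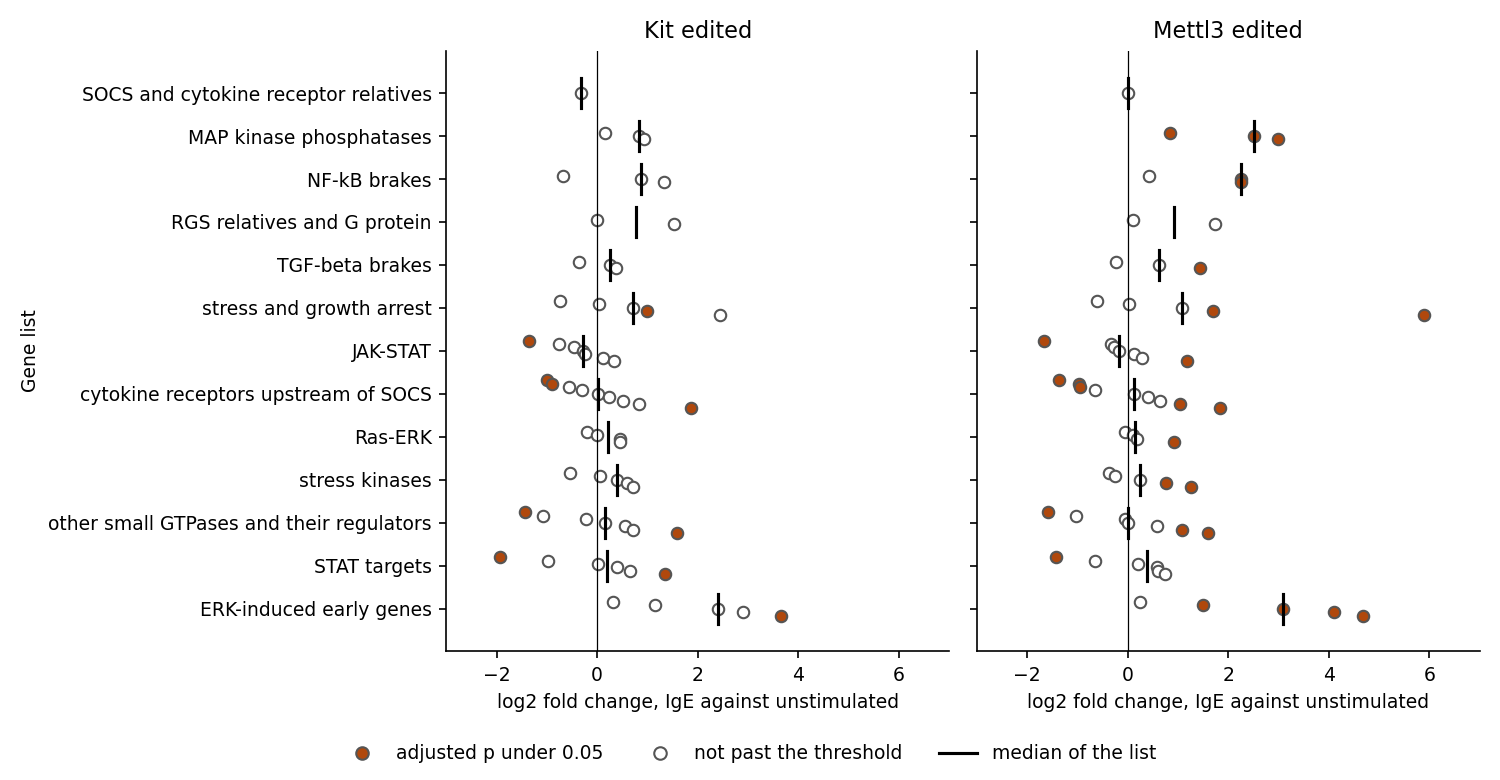
Log2 fold change of IgE against US (x axis) for the tested genes of 13 lists of signalling brakes and their pathways (y axis), in Kit (left) and Mettl3 (right), filled where edgeR's adjusted p is under 0.05 and with a black bar at the list median. The 3 MAP kinase phosphatases are filled in Mettl3 and open in Kit, where Dusp6 passes with the replicate number as a block. Filled to the right are 20 of 60 genes in Mettl3 and 5 in Kit, beside 22% and 12.1% of all tested genes. With the block these counts are 23 and 12, while the shares of all tested genes given here are without it. None of the 60 passes between the genotypes or in the interaction by edgeR.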

How the data were processed

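Raw nCounter probe counts of 12 libraries (40 ng of RNA each) were deposited by the authors as 1 table, without normalization. The study analysed them in nSolver Advanced Analysis 4.0. The genome build behind the counts was not given in the sources used here, and the pooled mean, minimum, maximum and %CV columns were not used.

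Groups came from the labels. Counts of 734 endogenous probes were scaled by the geometric mean of 20 housekeeping probes. The main test was the quasi-likelihood test of edgeR 4.0.16 (R 4.3.3) on the raw counts of all 12 libraries, for the 545 genes that reached 20 counts in 3 or more libraries, with Benjamini-Hochberg adjustment and calls at an adjusted p under 0.05. The replicate number was not in this model and entered only as a block among the alternatives. SE is the log2 fold change divided by the root of the F statistic. Likeness and paired differences used log2(normalized count + 1) in Python 3.11.15. The limit of background was the mean + 2 SD of 8 negative controls. Alternatives were TMM, the 16 brighter housekeeping probes, DESeq2 1.42.0, limma 3.58.1, an unmoderated linear model per gene, other filters, background subtraction, the groups compared alone, the replicate block and leaving out each library.

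Libraries with the same replicate number deviated together in 18 of 18 pairs across groups (mean r 0.33, range 0.14 to 0.52). The numbers, which come from the sample labels, were therefore taken to pair the samples in the differences by replicate and in the block. The main test was fitted without this pairing. The mean of -0.17 for different numbers is no separate support. Deviations were taken from each group's own mean and cancel within a group. The series' design text speaks of 3 sets of edited cells, and nothing says what a number shares.

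The 6 genes, the gene lists and the tests were chosen with earlier results of these data known. Named beside the 6 genes were the 2 genes most like each, up to 4 genes per list with the smallest p among those past the threshold, and, by value, list genes given as counterexamples or for a changed call. On simulated data for the Kit stimulation contrast (545 genes) the test called 47 of 50 genes raised 4-fold and 19 of 50 raised 2-fold.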

Additional observations from a re-analysis of the deposited data

How the results depend on the processing

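Of 649 alternative estimates for the 6 genes over the 5 comparisons, 34 turned sign, none of them of a value that had been called. Of these, 17 were of the interaction (Socs1 and Spry2), 4 of the response in Kit (Socs3), 4 of stimulated Mettl3 against Kit (Socs1 and Spry2) and 9 of unstimulated Mettl3 against Kit. The last 9 were Socs3 under DESeq2 (-0.025) and background subtraction (-0.0085), Rgs16 and Gem under background subtraction (-0.062 and -0.38), and Socs3 (range -0.19 to 0.38), Spry2 (-0.040 to 0.24) and Gadd45b (-0.25 to 0.40) on leaving out 1 library. Background subtraction raised the log2 response of Rgs16 to 6.94 in Kit and 8.31 in Mettl3 and that of Gem to 3.24 and 7.72.

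Counts of genes called moved more. In Kit the response count of 103 was 156 with the replicate block, 49 with the unmoderated linear model, 184 at the cutoffs of the study (fold change from 1.5 up, p up to 0.05 without adjustment) and between 46 and 108 without 1 library (46 without replicate 1 and 57 without replicate 3 of Kit US, 51 without replicate 3 of Kit IgE). In Mettl3 the 178 became 68 with the unmoderated model. At rest the 0 genes became 7 at the study's cutoffs. For stimulated Mettl3 against Kit the 5 became 23 by DESeq2, 3 with background subtracted, 0 with the 2 groups fitted alone by either model, 77 at the study's cutoffs and between 0 and 33 without 1 library. For the interaction the 0 became 2 by DESeq2, 23 at those cutoffs and between 0 and 5 without 1 library, in each of these last cases the highest count being the fit without replicate 3 of Mettl3 IgE. The replicate block changed no call on the 6 genes. With the highest negative control as the limit, 59 of 72 values were above background. The causes of these differences were not tested. Low counts limit Socs3, and Rgs16 and Gem at rest.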
